A study of Homo sapiens with 12 samples.

Results

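The untreated WT HLE-B3 cells of the study are described here on their own, by the level of their genes and not by a comparison with other groups. HLE-B3 is a human line, made immortal from cells of the lens epithelium (LECs), and its untreated cells were the control state from which the study followed autophagy and cell death in LECs. They were chosen by their labels, as the wild type cells that had received no H2O2 and were collected at 0 h, and they make up 3 libraries of 12. The other 9 libraries are WT cells after 12 h in 200 μM H2O2, untreated ATG7 KO cells, and ATG7 KO cells after 12 h in 200 μM H2O2, and none of them enters a value below. All cells were grown in DMEM/F12 with 10% fetal bovine serum, and total RNA was extracted to make the libraries. The study's methods do not say how RNA was selected for them. The 3 libraries are replicates of a single immortalized line, which the study's methods call biological without saying whether they were separate cultures, so their spread may be in part technical and says nothing of differences between lenses.

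In the eye the LECs form a single layer under the front of the lens capsule, a thick basement membrane that they lay down themselves. They divide near the lens equator and then become fibre cells, which lose their organelles and fill with crystallins, the proteins that make the lens clear and refractive. The fate is set by transcription factors such as PAX6, SOX2, PROX1, MAF and FOXE3. LECs hold contacts of epithelial type, and when they leave their layer they can take on a mesenchymal state with fibrillar collagens, fibronectin and smooth muscle actin. Against this background 20 lists of genes were read for their level in the WT cells.

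Levels are given as FPKM, the fragments on a gene relative to its length and to the size of the library, so that genes of different length can be set side by side. Values are the mean ± SD over the 3 libraries (n = 3) unless the values of replicates 1, 2 and 3 are given in this order. The libraries held 16982930, 17462594 and 17290405 reads on genes. At this depth 11766 genes of 58735 were above 1 FPKM in each library, 10414 of them protein-coding, and 30867 genes had no read in any of the libraries. Among the 19951 protein-coding genes the median was 1.51 FPKM, with 4066 genes at no reads, 5272 at up to 1 FPKM, 6199 between 1 and 10 FPKM, 4169 between 10 and 100 FPKM and 245 above 100 FPKM. By mean, 53.2% of the protein-coding genes were above 1 FPKM, and the counts of each list below are to be read against this share. The libraries were alike. The Pearson correlation of log2 FPKM between libraries was 0.991 to 0.992 across the 11942 to 12003 genes above 1 FPKM in both, which are not independent replicates. Every pair still differed by more than counting error, with a chi-square of 2.89 to 3.48 per gene where counting error alone gives about 1, so no pair was treated as copies of 1 library. This does not tell separate cultures from separate library preparations.

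The lens genes were for the most part at or near 0 in the WT cells. Of the 35 genes in the lens lists, 5 were above 1 FPKM, 16 had reads but stayed at or below 1 FPKM and 14 had no reads at all. By level they sat at a median percentile of 23.4 among the protein-coding genes, of which 53.2% were above 1 FPKM. This percentile had an SD of 7.93 between libraries and was 10.99 without replicate 3. The 35 genes were 12 transcription factors, 14 crystallins and 9 genes of fibre cells, of which 3, 1 and 1 had a mean above 1 FPKM. The last 2 lists bear mainly on fibre cells, which fill with crystallins. The count of 5 of 35 is therefore not a measure of the epithelial label. The cells carry the label of lens epithelium and are called HLE-B3 cells below. The identity of the line was not tested.

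Among the 12 lens transcription factors, TFAP2A, a factor of the surface ectoderm and the early lens, was the highest at 16.1, 15.5 and 14.7 FPKM. SIX3, which acts early in forebrain, eye and lens, stood at 3.21, 2.99 and 2.97 FPKM. PAX6 (ENSG00000007372, chromosome 11, 31784779 to 31818062, minus strand), the master regulator of eye development, was at 1.23, 1.22 and 1.35 FPKM, with 446, 467 and 500 reads. The ranges of the 3 factors did not overlap, and PAX6 ranked 10273 of the 19951 protein-coding genes. HSF4, the heat shock factor of the lens, was at 0.517 ± 0.164 FPKM and MEIS1, which acts upstream of PAX6, at 0.233 ± 0.0622 FPKM. FOXE3, the forkhead factor of the lens epithelium, had 3 reads in the 3 libraries together, PITX3 had 5, PROX1, which drives fibre differentiation, had 4, and MAF had 1. SOX1, SOX2 and EYA1 had no reads, and 0 reads in all 3 libraries allow a level of up to 0.0223 FPKM for SOX2, taken as 3 reads over the libraries together and for counting error alone.

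The crystallins were lower still. Of 14 crystallin genes, CRYGS (ENSG00000213139, chromosome 3, 186538441 to 186546702, minus strand) was above 1 FPKM, at 2.19, 2.20 and 1.94 FPKM, from 82, 87 and 74 reads. CRYAB, the small heat shock protein αB-crystallin that many tissues besides lens express, was at 0.132, 0.197 and 0.186 FPKM, which rests on 7, 11 and 10 reads. CRYBA1, CRYBA2, CRYBB3 and CRYGN had 4, 5, 1 and 3 reads over the 3 libraries. The other 8, CRYAA, CRYBA4, CRYBB1, CRYBB2, CRYGA, CRYGB, CRYGC and CRYGD, had none. For CRYGD the limit that 0 reads allow is 0.0905 FPKM and for CRYAA (ENSG00000160202, chromosome 21, 43169008 to 43172805, plus strand) it is 0.0307 FPKM. CRYAA has a near-identical copy in the annotation, CRYAA2, that was also at 0, and how reads that map to several places were counted is not given in the sources used here, so the 0 of CRYAA is uncertain. The same holds for CRYBB2, which has a pseudogene.

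The stretches before the start of these genes are shown because they set lens genes without reads or nearly so beside genes that the same cells express at low (CRYGS) and high levels (TMSB10, VIM and AXL). Each is the 100 bases that precede a single RefSeq start of the gene, on its strand, from the GRCh38.p14 build. Where several starts are listed, the first was taken, and other starts of the same gene were not read. The stretch of CRYGS lies inside the span of the gene. At least those of TMSB10 and AXL also run into the annotated spans of their genes, which begin at 84905625 and 41219203. Capitals mark TATAAA or TATATA where either begins between 40 and 20 bases before the start.
CRYGD, no reads, chr2:208124525-208124624, minus strand: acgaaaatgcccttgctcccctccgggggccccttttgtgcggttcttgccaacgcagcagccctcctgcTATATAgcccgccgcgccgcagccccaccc
CRYBB2, no reads, chr22:25219539-25219638, plus strand: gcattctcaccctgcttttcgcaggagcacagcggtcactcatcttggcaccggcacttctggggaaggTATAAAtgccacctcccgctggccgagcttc
MIP, 1 read, chr12:56454658-56454757, minus strand: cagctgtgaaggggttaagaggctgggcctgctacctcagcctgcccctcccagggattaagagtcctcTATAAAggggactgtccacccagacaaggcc
CRYGS, 2.11 FPKM, chr3:186544381-186544480, minus strand: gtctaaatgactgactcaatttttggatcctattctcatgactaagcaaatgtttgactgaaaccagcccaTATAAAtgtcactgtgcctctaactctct
TMSB10, 1472 FPKM, chr2:84905556-84905655, plus strand: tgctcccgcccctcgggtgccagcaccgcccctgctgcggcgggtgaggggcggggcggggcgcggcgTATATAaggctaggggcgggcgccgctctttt
VIM, 322 FPKM, chr10:17228141-17228240, plus strand: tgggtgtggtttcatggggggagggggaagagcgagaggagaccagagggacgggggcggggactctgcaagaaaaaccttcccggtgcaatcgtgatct
AXL, 417 FPKM, chr19:41219123-41219222, plus strand: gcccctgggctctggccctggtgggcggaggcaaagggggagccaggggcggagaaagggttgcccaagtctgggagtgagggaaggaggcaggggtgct

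The marked letters were found in silent and in active genes alike. They were present in 8 of the 13 crystallin genes with a sequence in the RefSeq table and in 4.56% of all 14867 protein-coding genes matched by symbol. The share was 11.7% in the 2617 genes at 0 FPKM, 6.01% in genes at up to 1 FPKM, 1.28% between 1 and 10 FPKM, 1.86% between 10 and 100 FPKM and 12.3% in the 187 nuclear genes above 100 FPKM. It was thus lowest at middle levels and about as common in the highest genes as in those without reads. The number of CG dinucleotides in the 250 bases before the start rose through the classes, with a median of 4 in genes at 0 FPKM, 11 at up to 1 FPKM, and 21, 22 and 23 in the classes above. In the crystallins it was 5 and in the housekeeping genes 22.5. TATAAA and TATATA overlap in their letters and were searched on the strand of the gene only. A match is a description of these letters, and the start that the WT cells used was not measured. The shares and the CG counts rest on the first listed start of each gene.

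Of the 9 genes of fibre cells, TDRD7 alone was above 1 FPKM. TDRD7, an RNA granule protein whose loss causes cataract, stood at 13.2, 12.6 and 13.5 FPKM, and it is expressed in many tissues. BFSP1, a subunit of the beaded filament that only lens fibres build, was at 0.298 ± 0.108 FPKM, from 54 reads in all. MIP, the water channel of fibre cells, and GJA3, a fibre connexin, had 1 read each, and LIM2 and DNASE2B had none. Exons of other genes covered 60.3% of the exons of MIP, and its part in the low level was not tested.

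Genes of other cell types were also low. Of the 53 genes on lists for cornea and epidermis, pigment cells, retina and neurons, endothelium, blood, and muscle and liver, 3 (5.66%) were above 1 FPKM and 21 had no reads. Among all protein-coding genes 53.2% were above 1 FPKM. These 3 were KRT10, a keratin of the upper epidermis, at 9.70 ± 0.165 FPKM, MITF, the pigment cell factor, at 1.51 ± 0.0830 FPKM and SYT1, a synaptic vesicle protein, at 1.24 ± 0.118 FPKM. The summed level of the 53 genes was 15.5, 16.8 and 15.7 FPKM, and the defining genes RPE65, TYR, HBB, DES and MYOD1 were at 0 reads in every library. The RNA is that of a whole culture, in which fewer cells of a type and less RNA per cell cannot be told apart.

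The mesenchymal genes stood far above the lens genes. Of the 25 genes on the mesenchymal list, 19 (76%) were above 1 FPKM and 5 above 100 FPKM, at a median of 4.42 FPKM and a median percentile of 63.3. All 25 had reads. Of the 25 genes on the epithelial list, 9 (36%) were above 1 FPKM, with a median of 0.0476 FPKM and a median percentile of 31.1. The share above 1 FPKM among all protein-coding genes was 53.2%. The mesenchymal and epithelial lists held 0.735% ± 0.0127 and 0.134% ± 0.00405 of the FPKM of the libraries. These are levels within a single group, described without a test.

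COL1A1 (ENSG00000108821, chromosome 17, 50183289 to 50201632, minus strand), which codes for the α1 chain of type I collagen, led the mesenchymal list at 619, 645 and 613 FPKM. VIM, the intermediate filament protein vimentin, was at 328, 309 and 329 FPKM and SPARC, a collagen-binding matrix protein, at 310.1, 298 and 316 FPKM. COL1A1 lay above both in every library, while VIM and SPARC overlapped. CDH2, the neural cadherin, which lens cells also express, stood at 169, 159 and 160.1 FPKM and FN1, fibronectin, at 140.1, 146 and 143 FPKM. TNC, the matrix glycoprotein tenascin C, followed at 75.97 ± 0.869 FPKM, then LOX, the enzyme that crosslinks collagen, at 65.2 ± 0.973 FPKM. The factors that drive the mesenchymal state were at low to middle levels, with TWIST1 at 9.26 ± 0.714 FPKM, ZEB1 at 8.43 ± 0.690 FPKM, TWIST2 at 4.18 ± 0.219 FPKM, SNAI2 at 4.12 ± 0.185 FPKM, ZEB2 at 3.73 ± 0.180 FPKM and SNAI1 at 3.21 ± 0.495 FPKM. All 6 were above 1 FPKM in each library, and the overlapping pairs were TWIST1 with ZEB1, TWIST2 with SNAI2, and ZEB2 with SNAI1. Other members of the list were low. ACTA2, smooth muscle actin, was at 1.48, 1.35 and 1.85 FPKM, POSTN at 0.629 ± 0.157 FPKM, PDGFRA at 0.155 ± 0.0324 FPKM and CDH11 at 0.113 ± 0.0189 FPKM. Several other genes of the contractile apparatus were well above ACTA2 in every library. ACTA1, a muscle actin, and DES, a muscle filament protein, went the other way, at 0.0256 FPKM and no reads. TAGLN, an actin-binding protein of smooth muscle and a member of the list, was at 28.8, 29.7 and 32.2 FPKM, and of genes outside it, named after their values were seen, TPM2, a tropomyosin, was at 183 ± 14.2 FPKM, MYL9, a myosin light chain, at 98.5 ± 4.11 FPKM and CNN1, a calponin, at 45.8 ± 1.96 FPKM.

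Several collagens were at very unequal levels for chains that assemble with each other. Type I collagen is usually built of COL1A1 and COL1A2 chains, and COL1A2 stood at 5.10, 5.36 and 5.80 FPKM, from 991, 1099 and 1150 reads, against 105909, 116518 and 106818 reads for COL1A1. Within a library the COL1A1 level was 116 ± 8.91 times that of COL1A2. COL3A1, the fibrillar collagen that often accompanies type I, had 5 reads in the 3 libraries together. Type VI collagen is built of COL6A1, COL6A2 and a longer chain. COL6A1 was at 188, 200.2 and 198 FPKM and COL6A2 at 220.4, 234 and 225 FPKM, a ratio of 1.16 ± 0.0180, while COL6A3 was at 0.304, 0.379 and 0.333 FPKM, so that COL6A1 lay 580.1 ± 46.9 times above it. Of other chains, COL5A1 was at 1.30 ± 0.0919 times the level of COL5A2 and COL4A2 at 1.67 ± 0.115 times that of COL4A1. COL4A5 and COL4A6 were further apart, at 9.17% ± 0.702 and 1.28% ± 0.0929 of the summed FPKM of the type IV chains. Exons of other genes covered none of the exons of COL1A1, COL1A2, COL6A1, COL6A2 and COL6A3. Over all 44 collagen genes 15 (34.1%) were above 1 FPKM, against 53.2% of protein-coding genes, and 5 had no reads. The chains of type V and type VI collagen were named after their values were seen.

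The epithelial list was split into keratins and junction genes at clear levels and a larger set near 0. KRT7, a keratin of simple epithelia, stood at 149.6, 149 and 154 FPKM, KRT8 at 73.5, 72.7 and 80.5 FPKM and its partner KRT18 at 41.8, 37.6 and 46.7 FPKM. The 3 keratins did not overlap, and KRT8 was 1.81 ± 0.112 times KRT18. DSP, the desmosomal plaque protein desmoplakin, was at 18.3 ± 0.708 FPKM, CLDN1, a tight junction claudin, at 15.6 ± 0.544 FPKM, TJP1, the scaffold ZO-1, at 10.7 ± 0.503 FPKM, JUP, plakoglobin, at 8.16 ± 0.374 FPKM, and OCLN, occludin, at 2.13 ± 0.168 FPKM. Outside the list, and also named after their values were seen, the desmosomal cadherins DSG2 and DSC3 were at 48.7 and 20.1 FPKM. Other desmosomal cadherins are not given here. The genes that define most epithelia were absent or nearly so. CDH1 (ENSG00000039068, chromosome 16, 68737225 to 68835548, plus strand), E-cadherin, had 0, 0 and 3 reads, EPCAM had 1 read in all, ESRP1, a splicing factor of epithelia, had 1, ESRP2 had 13, and GRHL2, a factor that maintains epithelial junctions, and KRT14, a keratin of basal layers, had none. Among the 9 epithelial genes above 1 FPKM the median percentile within the expressed protein-coding genes was 72.9, above the 55.8 of the 19 mesenchymal genes. The low median of the whole epithelial list goes with its 16 members at or below 1 FPKM. Over all 55 keratin genes 8 were above 1 FPKM and 34 had no reads, with KRT80 at 11.5 FPKM, KRT19 at 5.57 FPKM, KRT17 at 3.28 FPKM and KRT34 at 2.51 FPKM completing the set with KRT10. KRT80, KRT17 and KRT34 were named after their values were seen. VIM was 4.27 ± 0.192 times the level of KRT8.

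**Figure D1:**
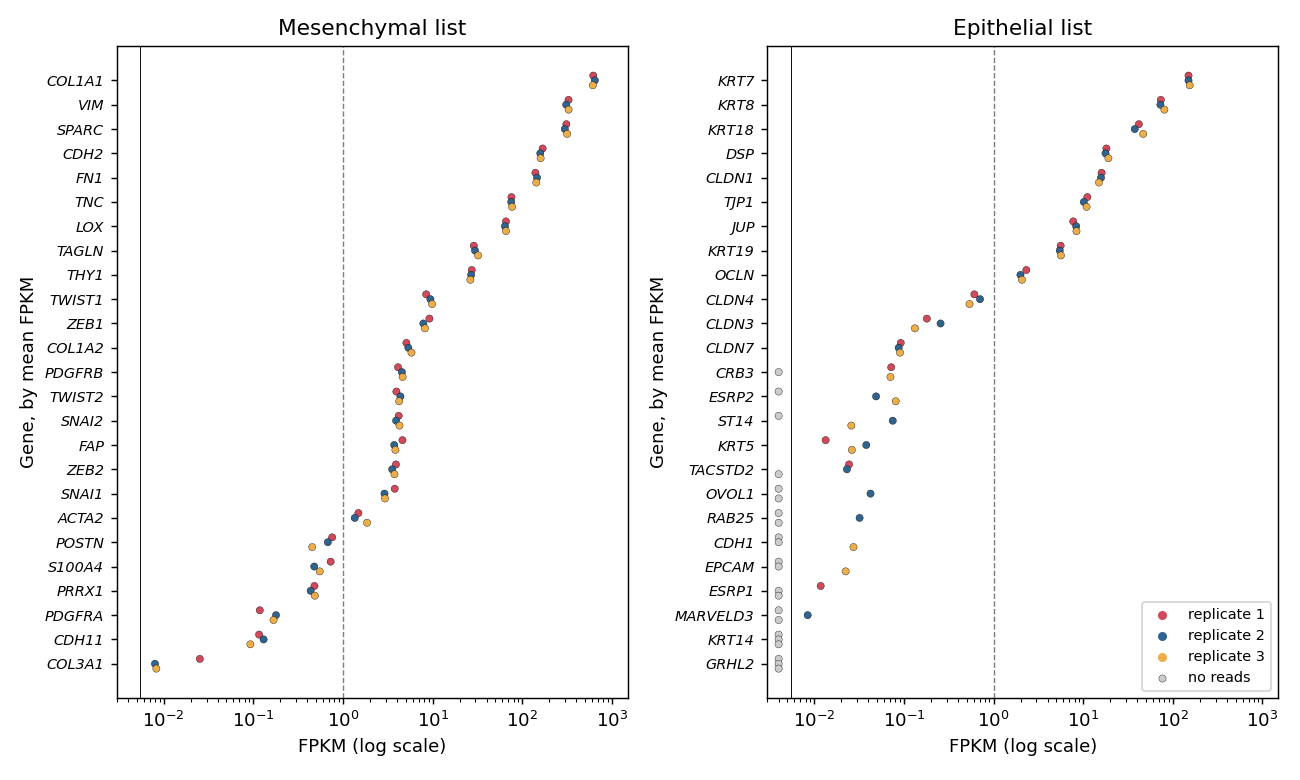
FPKM (horizontal axis, log scale) of the 25 mesenchymal and the 25 epithelial genes in each of the 3 libraries, ordered by mean, with grey points left of the solid line for libraries without reads and a dashed line at 1 FPKM. Of the mesenchymal genes 19 lie right of the dashed line, up to COL1A1 at 626 FPKM, and of the epithelial genes 9 do, up to KRT7 at 151 FPKM.

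Genes of the lens capsule, the basement membrane of LECs, were for the most part expressed. Of 23 genes 16 (69.6%) were above 1 FPKM, against 53.2% of protein-coding genes, and LAMB4 had no reads. COL18A1, whose fragment is endostatin, led at 84.4, 94.1 and 88.5 FPKM, followed by the laminin chain LAMC1 at 65.9, 63.3 and 66.4 FPKM and NID1, nidogen, at 57.1, 59.5 and 57.1 FPKM. Neither LAMC1 nor NID1 overlapped a neighbour in this order. The type IV collagen chains were COL4A2 at 32.9 ± 1.78 FPKM, COL4A1 at 19.8 ± 0.566 FPKM and COL4A5 at 5.43 ± 0.390 FPKM, and COL4A3 and COL4A4 stayed below 1 FPKM. Among the laminin α chains LAMA1, the chain of early basement membranes, held 44.6% ± 1.71 of the summed FPKM, LAMA3 28.9% ± 1.41 and LAMA5 25.1% ± 0.307. The summed α chains came to 17.4 FPKM and the β and γ chains to 143 FPKM. AGRN, agrin, was at 30.1 ± 1.77 FPKM and HSPG2, perlecan, at 11.00 ± 0.494 FPKM.

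The highest genes of the cells were mitochondrial. Of the 20 protein-coding genes with the highest mean FPKM, 12 lie on the mitochondrial chromosome. MT-CO1, a subunit of cytochrome c oxidase, was at 9108, 7697 and 7980.1 FPKM, MT-CO2 at 6541, 5416 and 5834 FPKM and MT-CO3 at 6265, 5491 and 5785 FPKM. MT-CO1 was the highest in every library, and MT-CO2 and MT-CO3 overlapped. MT-ATP6, MT-ND4L, MT-ND4, MT-CYB, MT-ND3, MT-ND1, MT-ND2, MT-ND5 and MT-ND6 lay between 1081 and 3473 FPKM. All 37 genes of the mitochondrial chromosome held 18.3% to 19.9% of the FPKM but 4.49% to 4.97% of the reads, since FPKM weighs each read by the shortness of its gene. The 10 highest genes of any kind, 9 of them mitochondrial, held 15.97% ± 0.785 of the FPKM, and on average 575 genes made up 50% of it. Counted in reads, not per length, the share was 6.18% and the number 1105 genes, and without mitochondrial genes they were 5.00% and 1066 genes. Replicate 1 was the highest of the 3 libraries in 11 of the 13 mitochondrial protein-coding genes. It was counted as highest in 9897 of all 19951 protein-coding genes, a count that takes in the 4066 genes without reads. The FPKM of replicate 1 also had the largest sum, 250430.

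Among the nuclear genes of the highest 20 were ACTG1, TMSB10, ACTB, EEF1A1, HSP90AB1, COL1A1 and FTL. ACTG1, a cytoplasmic actin, stood at 1564, 1491 and 1561 FPKM and TMSB10, a thymosin that binds actin monomers, at 1331, 1504 and 1582 FPKM. These genes overlapped, and TMSB10 was above ACTG1 in replicates 2 and 3. ACTB, the other cytoplasmic actin and the gene to which the study's qPCR was normalized, was at 1307, 1278 and 1276 FPKM and below ACTG1 in every library, by a ratio of ACTG1 to ACTB of 1.20 ± 0.0282. EEF1A1, a translation elongation factor, was at 1070.1 ± 41.9 FPKM, HSP90AB1, a chaperone, at 739 ± 24.3 FPKM and FTL, the ferritin light chain, at 570.1 ± 15.9 FPKM. Actins, EEF1A1, ribosomal proteins and ferritins have close copies and many pseudogenes, so their levels are uncertain to the extent that reads were shared. The next 12 nuclear genes in the order, named after their values were seen, were YBX1, TUBB, EEF2, GAPDH, LGALS1, RPL7A, FLNA, AXL, RPS12, PFN1, RPL35 and ENO1, between 389 and 569 FPKM. AXL, a receptor tyrosine kinase often found with mesenchymal genes, was at 392, 420.4 and 439 FPKM.

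**Figure D2:**
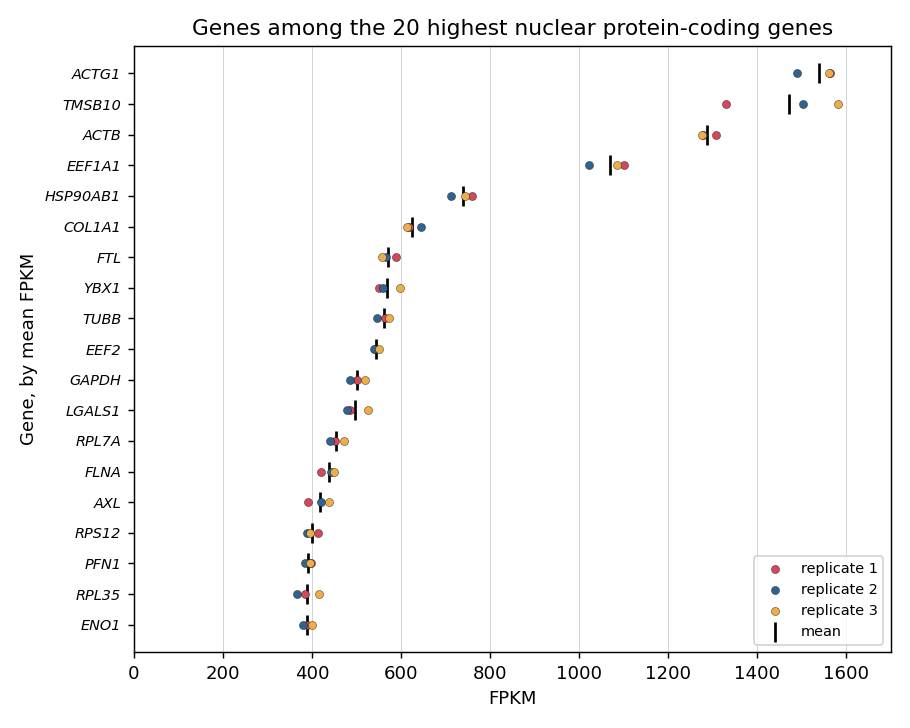
FPKM (horizontal axis, linear) of genes among the 20 nuclear protein-coding genes with the highest mean, with 1 point for each of the 3 libraries and a bar at the mean. ACTG1 and TMSB10 overlap at the top, and a gap separates EEF1A1 (1070 FPKM) from HSP90AB1 (739 FPKM).

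Among the 1553 genes that the authors' table marks as transcription factors, 918 had a mean above 1 FPKM. Among the 10 highest were YBX1, HMGA1, FOSL1, NFE2L1, CNBP, TFDP1, HIF1A, ID3 and ATF4. YBX1, a cold shock protein that also binds RNA, was at 550.4, 559 and 598 FPKM, HMGA1, an architectural chromatin protein common in dividing cells, at 268, 272 and 267 FPKM and FOSL1, the AP-1 member FRA-1, at 184, 187 and 188 FPKM. These 3 were apart from each other and from the rest. NFE2L1 and CNBP overlapped, at 153 ± 2.29 and 151 ± 8.91 FPKM, and HIF1A, the factor of the hypoxia response, overlapped ID3 and ATF4, at 115 ± 5.70 FPKM against 114 ± 1.92 FPKM for ID3, an inhibitor of bHLH factors, and 106 ± 4.55 FPKM for ATF4, the factor of the integrated stress response. No factor of the lens list was among them, and TFAP2A, the highest of that list, ranked 2911 among protein-coding genes.

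HOX genes, which pattern the trunk and are largely silent in the front of the head, were examined after their values were seen. Of 39 HOX genes 16 (41.0%) had a mean above 1 FPKM, below the 53.2% of protein-coding genes, and 11 had no reads. HOXB9 (ENSG00000170689, chromosome 17, 48621159 to 48626356, minus strand) stood at 64.1, 63.8 and 62.98 FPKM and HOXB7 at 49.2, 46.3 and 47.6 FPKM, a ratio of 1.33 ± 0.0397 that lay above 1 in every library. The next were HOXB6 at 7.04 ± 0.588 FPKM, HOXB4 at 6.59 ± 0.241 FPKM, HOXB3 at 6.20 ± 0.446 FPKM, HOXB8 at 3.81 ± 0.330 FPKM and HOXC13 at 3.35 ± 0.691 FPKM. All genes above 1 FPKM belonged to the A, B or C clusters, with HOXA3 the highest of the A cluster at 2.25 ± 0.107 FPKM, and all 9 HOXD genes had no reads in any library. HOXB9 thus lay above every member of the lens transcription factor list in each library. FOXC1, a factor of the front of the eye, was at 7.33 ± 0.417 FPKM, and it was named after its value was seen.

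**Figure D3:**
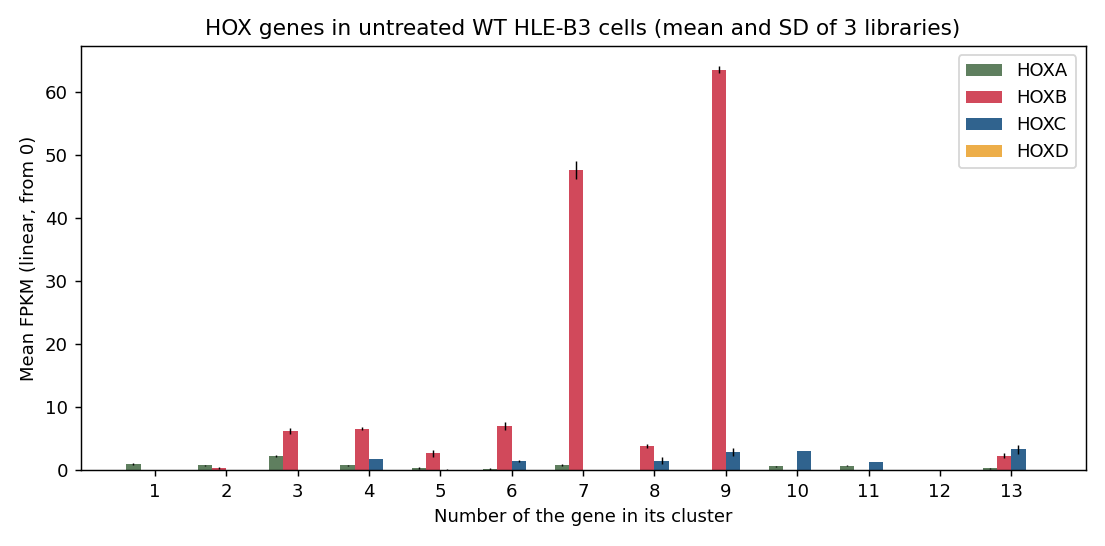
Mean FPKM (vertical axis, linear, from 0) of the HOX genes by their number in the A, B, C and D clusters, with the SD over the 3 libraries as error bars. HOXB9 (63.6 FPKM) and HOXB7 (47.7 FPKM) stand out, and the 9 genes of the D cluster are at 0.

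In 26 gene families of related members, the share of the family's summed FPKM held by each member was computed within each library. The families are sets chosen here, and some leave out known members, so a share refers only to the members read. Of the 23 families with a sum above 10 FPKM, a single member held over 50% in 17 and over 90% in 8. The families had from 2 to 19 members, and with 2 members the leader holds at least 50% in any case. These counts thus depend on how the sets were drawn, and no reference share was computed. VIM held 98.4% ± 0.0940 of the cytoplasmic intermediate filaments other than keratins, and CDH2 93.7% ± 0.107 of the classical cadherins. SLC2A1, the glucose transporter of most dividing cells, held 94.5% ± 0.904 of the 4 glucose transporters read, SLC2A1 to SLC2A4, and SLC2A3 5.43% ± 0.888. Other SLC2A genes were not in this set. LDHA held 97.7% ± 0.254 of lactate dehydrogenase, ENO1 95.1% ± 0.288 of the enolases and HK1 80.4% ± 0.235 of the 4 hexokinases read. ITGB1 held 93.6% ± 0.226 of the integrin β subunits, while the α subunits were shared between ITGA3 at 47.3% ± 0.936, ITGAV at 20.2% ± 0.709 and ITGA5 at 18.5% ± 0.236.

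The receptors of growth factors that act on LECs were read in the same way. FGFR1 held 84.97% ± 0.348 of the FGF receptors and FGFR3 13.96% ± 0.278, and FGFR2 had 1 read in the 3 libraries. EGFR held 58.6% ± 0.861 and ERBB2 39.2% ± 0.854 of the ERBB receptors, with EGFR at 15.9, 15.99 and 16.1 FPKM and ERBB2 at 10.2, 10.95 and 10.97 FPKM, without overlap. Of the insulin and IGF receptors read, IGF2R, which is not a receptor kinase, held 60.3% ± 0.294. The receptor kinases IGF1R and INSR held 28.8% ± 0.380 and 10.96% ± 0.362. TGFBR2 and TGFBR1, which pass on the TGF-β signal, held 31.3% ± 0.576 and 26.04% ± 1.10 of the 10 type I and II receptors read. Of these, 8 were above 1 FPKM.

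Lens cells depend on gap junctions and water channels, and these families differed. Of 18 connexins, GJC1 held 60.2% ± 0.627 and GJA1, the connexin of the lens epithelium, 38.7% ± 0.481, with GJC1 at 40.2, 40.6 and 40.99 FPKM and GJA1 at 26.3, 25.5 and 26.4 FPKM and no overlap. The other 16 stayed below 1 FPKM. Of 12 aquaporins none had a mean above 1 FPKM. The highest, AQP11, was at 1.17, 1.04 and 0.752 FPKM, and AQP1, the water channel of the lens epithelium, had 2 reads in all.

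Genes of the pathways that the study followed in these cells were present at baseline. Of 19 autophagy genes 15 (78.9%) were above 1 FPKM, against 53.2% of protein-coding genes. The lysosomal membrane proteins LAMP1 and LAMP2 were at 118 ± 1.85 and 58.03 ± 2.89 FPKM, and SQSTM1, the cargo receptor p62, was at 34.4, 33.03 and 35.01 FPKM. ATG7, the E1-like enzyme of both autophagy conjugation systems, was at 2.81, 2.64 and 2.21 FPKM, from 433, 429 and 346 reads, well below ATG5 at 13.6 ± 0.708 FPKM and ATG3 at 8.55 ± 0.612 FPKM. Among the LC3 and GABARAP proteins, which mark the autophagosome, GABARAPL2 held 45.8% ± 1.38, GABARAPL1 33.7% ± 1.18 and MAP1LC3B 17.6% ± 0.836. MAP1LC3A had 6 reads in all and MAP1LC3C none. GABARAP was at 0.836, 0.816 and 0.596 FPKM, and exons of other genes cover 55.7% of its exons, the part of which in this level was not tested.

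Of 15 genes of NF-κB signalling 14 (93.3%) were above 1 FPKM, against 53.2% of protein-coding genes. NFKBIA, the inhibitor IκBα, was at 48.97, 54.1 and 53.6 FPKM and RELA, the p65 subunit, at 34.1, 33.7 and 33.9 FPKM. The other subunits were lower, with NFKB2 at 17.9 ± 0.439 FPKM, NFKB1 at 15.7 ± 0.584 FPKM, RELB at 10.8 ± 0.384 FPKM and REL at 0.785 ± 0.102 FPKM. Of the atypical PKC enzymes PRKCI was at 37.1, 34.5 and 36.4 FPKM and PRKCZ at 1.40, 1.58 and 1.64 FPKM, a ratio of 23.5 ± 2.60. RIPK1 and TRAF6, adaptors upstream of the pathway, were at 18.9 ± 0.307 and 3.76 ± 0.103 FPKM.

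Of 16 apoptosis genes 15 (93.75%) were above 1 FPKM, against 53.2% of protein-coding genes. Among the survival proteins MCL1 was at 62.3, 59.97 and 61.9 FPKM, BCL2L1 at 13.6, 14.4 and 12.9 FPKM and BCL2 at 1.07, 1.16 and 1.14 FPKM, so that MCL1 was 54.6 ± 3.20 times the level of BCL2. The pore formers BAX and BAK1 were at 22.4 ± 0.218 and 19.4 ± 0.465 FPKM, without overlap. Of the inhibitors of apoptosis BIRC2 was at 57.5 ± 1.997 FPKM, BIRC3 at 16.1 ± 0.862 FPKM and XIAP at 9.99 ± 0.377 FPKM. DIABLO was at 0.220 ± 0.0451 FPKM, but the annotation holds a further gene under this symbol and exons of other genes cover 30.4% of its exons.

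All 22 genes of defence against oxidants were above 1 FPKM, at a median of 53.7 FPKM. FTL led, followed by TXN, thioredoxin, at 210.3 ± 10.9 FPKM and PRDX1, a peroxiredoxin, at 185 ± 9.53 FPKM. SOD1, the cytosolic superoxide dismutase, was at 80.9, 82.8 and 86.96 FPKM and SOD2, the mitochondrial form, at 23.7, 22.97 and 20.1 FPKM, of which the file holds a further gene under the same symbol. CAT, catalase, was at 8.06 ± 0.650 FPKM, HMOX1 at 6.76 ± 0.257 FPKM and GCLC at 4.16 ± 0.0382 FPKM, the lowest of the list. NFE2L2, the factor NRF2, was at 12.6 ± 0.703 FPKM and its inhibitor KEAP1 at 25.95 ± 0.717 FPKM. Exons of other genes cover 62.4% of those of FTH1, the ferritin heavy chain, which was at 137 ± 6.05 FPKM.

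Genes of the dividing cell were expressed throughout. All 16 genes of proliferation were between 12.9 (CCNE1) and 171 FPKM (PCNA), with MKI67 at 47.8, 46.6 and 54.4 FPKM and TOP2A at 118, 108 and 114 FPKM. At the same time 6 of 7 CDK inhibitors were above 1 FPKM. CDKN2A, which codes for p16 and p14ARF, was at 94.7, 95.7 and 95.5 FPKM and CDKN1A, p21, at 50.3, 49.9 and 48.3 FPKM, without overlap, while CDKN1C had 2 reads. CCND1 held 80.5% ± 0.339 of the D-type cyclins. Of the immediate early genes, which serum and handling switch on within minutes, FOS was at 0.335 ± 0.0868 FPKM and FOSB at 0.457 ± 0.0522 FPKM, whereas IER3 was at 85.6 ± 6.26 FPKM, JUNB at 57.6 ± 1.56 FPKM and EGR1 at 9.49 ± 1.08 FPKM.

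All 27 housekeeping genes were above 1 FPKM, at a median percentile of 97.3 among protein-coding genes, and they spread over a wide range. ACTB was the highest. GAPDH was at 502, 486 and 519 FPKM, B2M at 84.6, 77.1 and 81.8 FPKM and TBP, the TATA-binding protein, at 13.6, 13.3 and 12.3 FPKM. These genes did not overlap. The SD of a gene over the 3 libraries, as a share of its mean, had a median of 3.84% in the 4414 protein-coding genes above 10 FPKM, where the relative counting error of a library, 1 over the square root of its reads on the gene, had a median of 2.35%. In the 27 housekeeping genes the median was 4.29%, from 0.322% in SDHA to 6.71% in RAB7A. ACTB varied by 1.33% and GAPDH by 3.31%, while HPRT1 and TFRC varied by 6.66% and 6.58%. Of the 27 genes 22 were lowest in replicate 2, against 54.6% of the protein-coding genes above 10 FPKM, and 19 were lowest there when counts were scaled by the median of ratios, against 45.5%. The FPKM of replicate 2 summed to 240552, below the 250430 and 248019 of replicates 1 and 3.

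**Figure D4:**
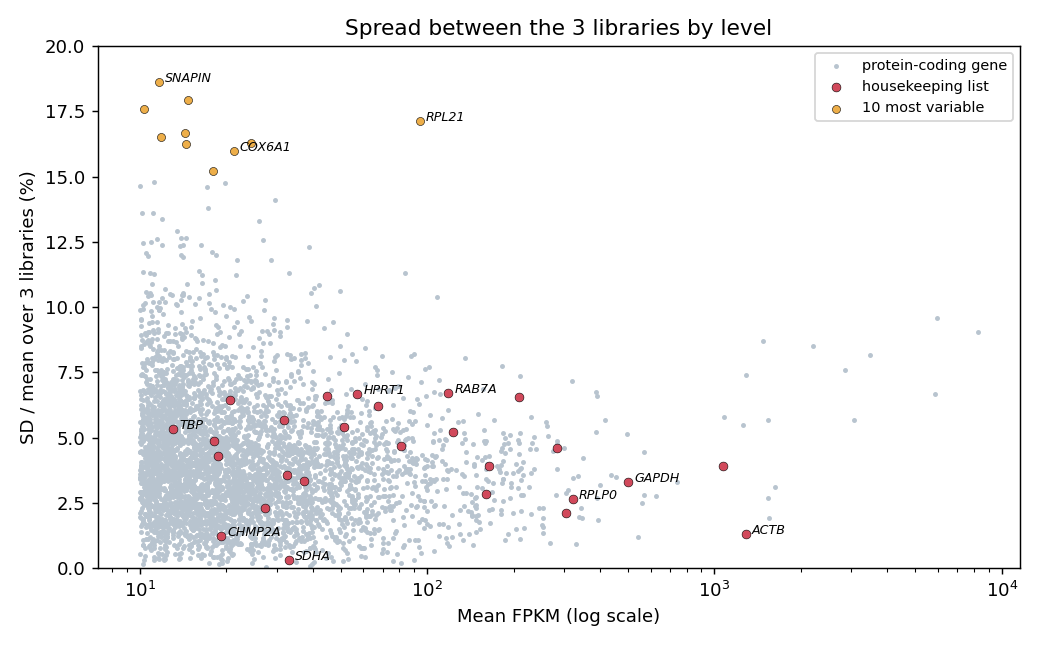
SD over the 3 libraries as a percent of the mean (vertical axis) against mean FPKM (horizontal axis, log scale) for protein-coding genes above 10 FPKM, with the housekeeping list and the 10 most variable genes in colour. Among the housekeeping genes SDHA (0.322%) and ACTB (1.33%) lie low and RAB7A (6.71%) high, all below the 10 most variable genes.

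The 10 most variable protein-coding genes above 10 FPKM were SNAPIN, C6orf48, NKX2-6, RPL21, HES4, TMA7, LSM12, AL592183.1, COX6A1 and AMH, at 15.2% to 18.6%. RPL21, a ribosomal protein with many pseudogenes, was the highest of this set, at 102, 75.8 and 105 FPKM, and was low in replicate 2. SNAPIN, an adaptor of vesicle and lysosome transport, was at 13.8, 11.8 and 9.45 FPKM and highest in replicate 1. COX6A1, a nuclear subunit of cytochrome c oxidase, was at 17.9, 24.7 and 21.1 FPKM and highest in replicate 2. In none of the 4414 genes did the SD reach 20% of the mean, and in 89 it was above 10%. AMH, the anti-Müllerian hormone, and NKX2-6, a cardiac and pharyngeal homeobox factor, stood at 17.96 ± 2.73 and 10.3 ± 1.81 FPKM in these cells.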

How the data were processed

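RNA-seq libraries of HLE-B3 cells were made by the authors from total RNA with the NEBNext Ultra kit. Whether poly(A) RNA was selected or ribosomal RNA removed is not stated in the study's methods. The submitters' processing notes name HISAT2 2.0.5, featureCounts 1.5.0-p3 and the GRCh38 build. The strand setting, and what was done with multiply mapped reads, are not given in the sources used here. The authors deposited raw read counts per gene, whole numbers without normalization, and FPKM values scaled from the same reads per gene length and library total. In each library an FPKM value equalled count over length and total count times a factor of 0.949 to 0.975, and the same genes were at 0 in both tables. The untreated WT libraries were taken by their labels, and the replicate numbers are those of the sample titles. Totals were 16982930 to 17462594 reads.

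Means, SDs and ranks over the 3 libraries were computed in Python 3.11.15 with pandas 2.3.3 and NumPy 2.4.6. No test was made, since a single group is described, and 3 libraries within a group cannot give a two-sided exact p below 0.25. Ranges that share values are called overlapping. Expression means FPKM above 1, as in the study. The upper limit of a gene without reads is 3 reads over the libraries together. Symbols held by several genes were read from the protein-coding gene with the lowest identifier. Exon overlap, on either strand, and GC content came from GENCODE 29, whose gene starts and ends match the files for all 58735 genes. Promoter sequences came from RefSeq on GRCh38.p14, with 14867 of 19889 protein-coding symbols matched. For a symbol with several starts the first listed was used. Genes named are the 20 highest protein-coding genes, the 10 highest transcription factors, the 10 most variable genes above 10 FPKM, list members by level class, and family leaders. Some genes of these sets are not reported here. X-inactivation and Y-linked genes were left out. The group, lists and families were chosen with earlier results of these data known. The ranking of genes by SD over mean was checked on simulated counts, in which the variable genes spread more widely than any gene above 10 FPKM here. The median SD over mean was not checked in this way.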

Additional observations from a re-analysis of the deposited data

How the results depend on the processing

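The number of genes above 1 FPKM in each library was 11766 and stayed within 1.5 times of this under every setting tried, from 11942 to 12003 with a replicate left out, 12432 by mean FPKM, 13455 at 0.5 FPKM, 14440 at 10 counts in each library and 15071 by TPM, where 1 TPM is less than 1 FPKM in these files. The number of genes that hold 50% of expression, 575, rose to 1105 when reads were not divided by length and to 1066 without mitochondrial genes, and ran from 562 to 587.5 with a replicate left out. The share of the 10 highest genes, 15.97%, was 6.18% in reads and 5.00% without mitochondrial genes, and 15.5% to 16.3% with a replicate left out. The high share of a few genes thus rests on short mitochondrial genes in FPKM.

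The median percentiles kept the order housekeeping, mesenchymal, epithelial, lens when ranked by reads (97.9, 68.4, 32.8 and 22.03) and among all genes (99.0, 86.9, 60.8 and 54.0). Among protein-coding genes above 1 FPKM, where only members above it count, they were 94.9 for housekeeping, 55.8 for mesenchymal, 72.9 for epithelial and 20.3 for lens, so the epithelial list passed the mesenchymal list. With a replicate left out they ran from 97.2 to 97.4, 62.9 to 63.9, 29.8 to 33.3 and 10.99 to 24.1, the lowest lens value being without replicate 3. The median SD over mean, 3.84%, was 3.59% with scaled counts, 4.85% for genes above 1 FPKM and 3.60% above 100 FPKM. With a replicate left out it was 2.72% to 3.48%, the lowest being without replicate 2. At the same spread, an SD over 2 libraries has a lower median than an SD over 3. These values are thus not directly comparable with 3.84%.

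No paired analysis was possible because a single group was described and the results come from no test. Depth limits the genes with few reads, and 3 libraries of a single line limit every SD. Overlapping, antisense and copied genes can share reads. FPKM gives a share of RNA, not an amount per cell.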

Other observations

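Secreted factors were examined after their values were seen. Of 78 genes for interleukins, chemokines and colony stimulating factors 17 (21.8%) had a mean above 1 FPKM and 34 had no reads. The share above 1 FPKM among all protein-coding genes was 53.2%. CXCL8, which attracts neutrophils, was at 56.2, 54.4 and 47.3 FPKM, and CCL2, which attracts monocytes, at 29.5, 27.6 and 24.2 FPKM. IL32 was at 18.5 ± 1.45 FPKM, CXCL6 at 11.8 ± 1.18 FPKM, IL1A at 6.46 ± 0.955 FPKM, IL1B at 6.04 ± 0.523 FPKM and IL6 at 2.33 ± 0.587 FPKM. These 7 were each lowest in replicate 3. They were picked from the 17 after their values were seen, and the share of all genes lowest in replicate 3 was not computed. Their order is thus not a result about cytokines as a set. Of 27 matrix metalloproteinases and their inhibitors 9 had a mean above 1 FPKM, led by MMP14, a membrane-bound protease, at 57.8, 62.2 and 58.3 FPKM, TIMP2 at 59.9, 57.96 and 55.9 FPKM and TIMP1 at 37.1, 34.9 and 33.9 FPKM. MMP14 and TIMP2 overlapped. Of 52 FGF, WNT and BMP genes 10 had a mean above 1 FPKM. FGF2, a growth factor for LECs, was at 16.9, 17.2 and 17.1 FPKM and FGF5 at 13.2, 13.4 and 13.5 FPKM, while WNT5B was at 13.1 ± 0.541 FPKM and WNT7B at 7.23 ± 0.469 FPKM. TGFB1 was at 79.04, 76.9 and 78.3 FPKM and TGFB2, the main form in the eye, at 10.1, 9.33 and 9.77 FPKM. Genes that TGF-β or YAP signalling is known to raise were also present, with CTGF at 54.3 ± 1.26 FPKM and ANKRD1 at 15.5 ± 1.09 FPKM.

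Genes that do not code for protein held a small share of the FPKM. This share depends on how RNA was selected for the libraries, which the study's methods do not state. Processed pseudogenes held 2.26%, with RPS28P7 at 389, 347 and 332 FPKM and EEF1A1P5 at 202, 201 and 235 FPKM, and the reads of such copies cannot be told from those of their parent genes. NORAD, a long noncoding RNA that binds Pumilio proteins, was at 106, 106 and 106 FPKM. MALAT1, a nuclear long noncoding RNA, was at 59.8, 87.1 and 57.7 FPKM and stood apart in replicate 2. The deviation of each library from the mean of the 3, in log2 of scaled counts, moved with the GC content of the longest transcript over 4411 genes. Spearman's rho was -0.41 in replicate 1, 0.41 in replicate 2 and 0.00 in replicate 3, across genes that are not independent replicates. The 3 deviations of a gene cancel by construction, so the opposite values in replicates 1 and 2 are not separate results. The medians in the lowest and highest GC tertile were 0.03 and -0.02 in replicate 1 and -0.04 and 0.02 in replicate 2. Its part in the low values of the housekeeping genes in replicate 2 was not tested.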
